A study of Homo sapiens with 6 samples.

Results

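The neurotrophin genes and the genes of their receptors were followed in WM164, an established human melanoma cell line. Members were the rows of the deposited count table named NGFR, NTRK2, NTRK3, SORT1, BDNF, NTF3 and NTF4, which are 7 of 58870 genes. All 7 had a read in at least 1 library, 5 received an adjusted p-value and 4 had at least 10 counts in at least 3 libraries. RNA was sequenced from 3 libraries of WM164 cells overexpressing GFP, the control, and 3 libraries of WM164 cells overexpressing T-MGM, a tethered dimer in which the melanoma-specific isoform of MITF is joined by a flexible linker to MAFG. Both groups carried a lentiviral vector with the EF1α promoter and were kept under blasticidin selection in culture. MITF is the lineage transcription factor of melanocytes and MAFG is a small MAF transcription factor. The comparison asks how the tethered dimer alters transcription relative to GFP. The labels do not say that the libraries of a group came from separate cultures, so p-values measure the spread between these libraries, which may be technical.

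The GFP libraries held 35057239 to 38738065 counts each, and those labelled T-MGM were deeper, with 44577774 to 59250663. Libraries of 1 group correlated with each other at 0.991 to 0.994 across genes and libraries of different groups at 0.971 to 0.974. MAFG had 2458 ± 70.3 normalized counts with GFP and 2358 ± 34.9 with T-MGM (SD, n = 3), a log2 fold change of -0.06 with an adjusted p of 0.236. MITF had 19161 ± 46.9 and 20270 ± 165 normalized counts, a log2 fold change of 0.08 with an adjusted p of 4.80e-07, which turned to -0.06 on TPM. The levels of the genes joined in the construct therefore did not check the labels, and the groups are named here as labelled. Of 7 melanocytic markers, 6 reached 1 TPM (a level scaled for transcript length and depth) and TYRP1 did not. Their summed level was 964 to 977 TPM with GFP and 831 to 865 TPM with T-MGM. In DESeq2 MITF, SOX10 and PMEL rose (log2 fold changes of 0.08, 0.11 and 0.05). The direction of PMEL depended on scaling, since its TPM was 252 ± 5.33 with GFP and 237 ± 2.81 with T-MGM (SD, n = 3). MLANA, TYR and DCT fell (-0.68, -0.35 and -2.49). Of 6 Schwann cell markers 5 reached 1 TPM, and their sum was 492 to 513 TPM with GFP and 393 to 401 TPM with T-MGM. By DESeq2 1 of these markers rose and 4 fell, with MBP at -1.36. Neuronal markers, 3 of 5 at 1 TPM, summed to 81.1 to 84.9 and 88.9 to 90.4 TPM, and fibroblast markers, 1 of 6, to 4.39 to 4.89 and 5.48 to 7.31 TPM. In DESeq2 1 neuronal and 4 fibroblast markers rose and 0 of either fell. Of these fibroblast markers only LUM reached 1 TPM, and PDGFRB overlapped between groups, with 11, 15 and 2 reads against 16, 25 and 58. Beside all these marker counts, 19.2% of all genes tested rose and 19.2% fell. At a mean of at least 100 normalized counts these shares were 27.0% and 29.3%. For genes with a mean of at least 100 normalized counts, the median log2 change was -0.136 to -0.155 on TPM with limma. It was -0.0142 in DESeq2. Keratinocyte markers, 1 of 3, summed to 20.4 to 21.9 and 19.6 to 21.3 TPM with KRT5 at no more than 3 counts in any library. No endothelial marker reached 1 TPM, their sum did not pass 0.34 TPM in any library, and CDH5 was at no more than 3 counts. The part of these markers in the results below was not tested.

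Neurotrophins are secreted growth factors that keep neurons alive and shape their connections. They are made as precursors, and the mature factors act through TRK receptor tyrosine kinases, of which the NTRK2 product binds BDNF and NTF4 and the NTRK3 product binds NTF3. The product of NGFR, p75NTR or CD271, is a receptor of the tumor necrosis factor receptor superfamily that binds every neurotrophin and, together with the sorting receptor sortilin (SORT1), binds the precursors. NGFR is also a marker of neural crest stem cells and of neural crest-like melanoma cells.

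In these cells the RNA of NGFR, the p75NTR gene, and that of BDNF, which encodes a ligand of p75NTR, moved in opposite directions. NGFR rose 1.70-fold and BDNF fell to 0.264 of its GFP level in the libraries labelled T-MGM. SORT1, the third member with a sizeable level, had a log2 fold change of -0.06 that did not pass the test. NTRK2 and NTRK3 had few reads in every library, and NTF3 and NTF4 had 3 reads between them in all 6 libraries. Across all genes 19.2% rose and 19.2% fell at an adjusted p of 0.05 or less (38.4% in either direction), so a change as such is common in this comparison. The even split depended on scaling, since 2926 genes rose and 4635 fell with total counts, and 1154 rose and 4360 fell on log2 (TPM + 1) with a filter on low values. A fall of over 2-fold was found in 1.36% of genes and a rise of over 2-fold in 3.26%. Among members 1 rose and 1 fell of the 5 tested, and BDNF was the only member that passed with over 2-fold change. Because the libraries are bulk RNA, a change in the number of cells that express a gene and a change in RNA per cell cannot be told apart.

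**Figure D1:**
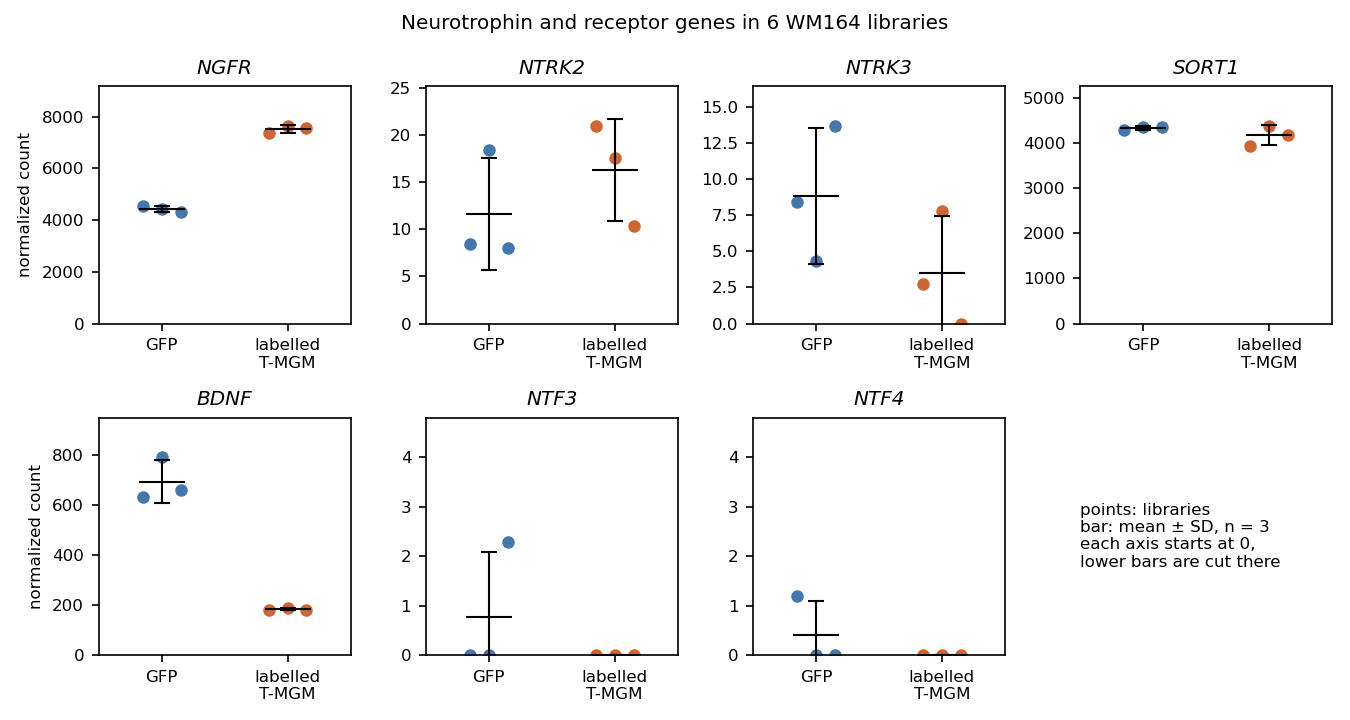
Normalized counts of the 7 members in each of the 6 libraries, 1 panel per gene, with points for libraries, bars for the group mean and lines for the SD (n = 3, cut at 0). NGFR stands at 4307 to 4528 with GFP and 7359 to 7650 with T-MGM, BDNF at 631 to 793 and 181 to 188, and the SORT1 groups overlap.

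NGFR (ENSG00000064300.9, GRCh38 chromosome 17, 49495293 to 49515008, plus strand) had 4528, 4412 and 4307 normalized counts in GFP replicates 1 to 3 and 7359, 7650 and 7569 in T-MGM replicates 1 to 3. Every T-MGM library was above every GFP library, which was also the case in 1 direction or the other for 46.8% of all genes tested. The means were 4416 ± 110 and 7526 ± 150 (SD, n = 3). The log2 fold change was 0.77 with an SE of 0.03, a fold of 1.70 with 95% limits of 1.64 to 1.77, and an adjusted p of 5.47e-180 in DESeq2. Of the 11652 genes with a mean of at least 100 normalized counts, 312 (2.68%) had a larger rise, where 27.0% of these genes rose and 29.3% fell. The genes closest to NGFR over the 6 libraries, by Euclidean distance between log2 profiles centred on their means, were MT2A (0.0461), HIST1H3B (0.0538) and LMO7 (0.0565). MT2A encodes a metallothionein, HIST1H3B a histone H3 and LMO7 a LIM domain protein. Exons annotated on the opposite strand overlap NGFR by 202 bases in NGFR-AS1 and by 924 bases in ENSG00000279036. NGFR-AS1 had 1 read in all 6 libraries, and ENSG00000279036 had 1, 2 and 0 reads with GFP and 8, 4 and 2 with T-MGM, against at least 3771 for NGFR.

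NGFR was the most abundant member per length. Its TPM was 27.1, 26.7 and 26.0 with GFP and 40.1, 42.0 and 40.5 with T-MGM, with means of 26.6 ± 0.567 and 40.9 ± 1.00 (SD, n = 3). Between 15.9% and 16.5% of 17851 protein-coding genes had a higher TPM in the GFP libraries and between 9.29% and 9.63% in the T-MGM libraries.

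NTRK2 and NTRK3 are the TRK receptor members, and both were close to the limit of detection. NTRK2 (ENSG00000148053.16, chromosome 9, 84668375 to 85095751, plus strand) had 7, 17 and 7 reads with GFP and 23, 18 and 14 with T-MGM. GFP replicate 2 was within the range of the T-MGM libraries, so the groups overlapped. The means were 11.6 ± 5.90 and 16.3 ± 5.44 normalized counts (SD, n = 3), and the log2 fold change was 0.47 with 95% limits of -0.66 to 1.61 and an adjusted p of 0.592. NTRK3 (ENSG00000140538.16, chromosome 15, 87859751 to 88256791, minus strand) had 7, 4 and 12 reads with GFP and 3, 8 and 0 with T-MGM. Its groups overlapped as well, with means of 8.81 ± 4.70 and 3.51 ± 3.96 normalized counts (SD, n = 3). Its log2 fold change was -1.37 with 95% limits of -3.33 to 0.59 and an adjusted p of 0.308. The limits of NTRK2 include a rise as large as that of NGFR and those of NTRK3 a fall as large as that of BDNF. Not passing the test therefore does not show that either gene was unchanged. NTRK3-AS1, an antisense gene whose exons do not overlap those of NTRK3, had 2, 1 and 0 reads with GFP and 0, 13 and 0 with T-MGM, and all but 3 of its reads came from 1 library.

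SORT1 encodes sortilin, a Vps10p-domain receptor that is the coreceptor of p75NTR for the precursors and also sorts BDNF inside the cell. SORT1 (ENSG00000134243.12, chromosome 1, 109309568 to 109397918, minus strand) had 4285, 4363 and 4354 normalized counts with GFP and 3943, 4385 and 4176 with T-MGM. T-MGM replicate 2 was the highest of all 6 libraries and the other T-MGM libraries were the lowest, so the groups overlapped. The means were 4334 ± 43.1 and 4168 ± 221 (SD, n = 3), and the log2 fold change was -0.06 with 95% limits of -0.12 to 0.01 and an adjusted p of 0.193. The call depended on T-MGM replicate 2, without which the log2 fold change was -0.09 with an adjusted p of 0.0249, and on scaling, since SORT1 passed as lower with total counts as scaling (-0.11, adjusted p = 0.00426) and on TPM. The profiles closest to SORT1 were those of B4GALT3 (0.0295), SRBD1 (0.039) and BRD1 (0.0432).

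BDNF, brain-derived neurotrophic factor, was the only neurotrophin with more than a few reads, and its gene has several promoters. For BDNF 5 RefSeq (GRCh38.p14) starts were at hand, which need not be all of its starts. The 250 bases before each were searched on both strands for 4 motifs. CACGTG and CATGTG are E-box forms bound by MITF. TGACTCA is the AP-1 element and TGACNNNGC the core of the element bound by small MAF dimers. Among 35116 windows of the same length CACGTG occurred in 6.34%, CATGTG in 9.42%, TGACTCA in 4.2% and TGACNNNGC in 10.9%. These are shares of single windows, whereas 5 windows of BDNF and 15 of members were searched, so they do not give how unusual a match is. The first sequence below, at chr11:27720780-27721029 on the minus strand, holds CATGTG starting at -86 and CACGTG at -42, counted from -1 at the base before the start. The second, at chr11:27701622-27701871 on the minus strand, holds TGACNNNGC starting at -57, and the other 3 BDNF windows held none of the motifs. They are shown because BDNF had the largest change among the members, and the window before the first start of SORT1, at chr1:109397919-109398168 on the minus strand, is shown as 1 without any of the 4 motifs. Capitals mark the motifs and the sequences read 5′ to 3′ on the strand of the gene.
BDNF window 2: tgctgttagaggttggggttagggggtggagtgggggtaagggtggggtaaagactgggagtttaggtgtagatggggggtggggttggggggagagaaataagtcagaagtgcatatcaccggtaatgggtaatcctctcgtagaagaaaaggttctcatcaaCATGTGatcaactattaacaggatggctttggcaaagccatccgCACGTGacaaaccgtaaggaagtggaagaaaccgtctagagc
BDNF window 4: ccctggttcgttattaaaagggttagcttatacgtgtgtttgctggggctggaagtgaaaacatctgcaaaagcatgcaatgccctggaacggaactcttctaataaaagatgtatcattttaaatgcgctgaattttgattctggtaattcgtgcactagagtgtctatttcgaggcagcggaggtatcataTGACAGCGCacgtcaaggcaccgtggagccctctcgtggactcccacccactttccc
SORT1 window 1: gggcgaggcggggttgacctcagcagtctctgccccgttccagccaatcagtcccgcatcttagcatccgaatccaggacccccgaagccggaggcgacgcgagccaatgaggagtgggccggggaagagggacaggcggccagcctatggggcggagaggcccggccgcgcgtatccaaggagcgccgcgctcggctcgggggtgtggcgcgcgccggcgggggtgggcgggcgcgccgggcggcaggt
Windows were at hand for 6 members, those other than NGFR, and for MAGED1, the adaptor described further on. Over the 15 windows of members CACGTG was found in 1, CATGTG in 2, TGACNNNGC in 2 and TGACTCA in 0. The other matches were in NTRK2, with TGACNNNGC starting at -149 of window 3 and CATGTG at -158 of window 4, and MAGED1 held CATGTG starting at -139 of its window 2. Matches stood before BDNF, which fell, NTRK2, which did not pass, and MAGED1, which rose and is not a member. A match of letters is a description of the sequence and was not tested against binding or direction of change.

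BDNF (ENSG00000176697.19, chromosome 11, 27654893 to 27722058, minus strand) had 631, 793 and 659 normalized counts in GFP replicates 1 to 3 and 181, 188 and 181 in T-MGM replicates 1 to 3. The groups were far apart, and the GFP libraries were more spread, with a coefficient of variation of 12.4% against 2.39%. The means were 694 ± 86.4 and 183 ± 4.38 (SD, n = 3). The log2 fold change was -1.92 with an SE of 0.11 and 95% limits of -2.14 to -1.71, a 3.79-fold lower level, with an adjusted p of 5.11e-68 in DESeq2. Without GFP replicate 2, the highest library, it was -1.82. Only 18 of the 11652 genes with a mean of at least 100 normalized counts (0.154%) had a more negative change. The closest profiles were those of SPOCK1 (0.288), APOLD1 (0.292) and PTPRZ1 (0.323), which encode an extracellular matrix proteoglycan, an endothelial early response protein and a receptor tyrosine phosphatase. BDNF-AS, an antisense gene whose exons overlap BDNF by 988 bases, had 32, 34 and 37 reads with GFP and 38, 25 and 50 with T-MGM. Its log2 fold change was -0.28 with 95% limits of -0.94 to 0.38 and an adjusted p of 0.578. The sources name a kit without strand information in one place and a stranded kit in another, so reads over the shared bases could not be assigned to a strand with certainty. Of the 6 other genes within 1 Mb with a mean of at least 50 normalized counts, 3 fell and 0 rose, with changes of -0.26 to 0.15. Around NGFR 5 of 31 such genes rose and 10 fell with a median of -0.02. Around SORT1 4 of 30 rose and 14 fell with a median of -0.13. At a mean of at least 100 normalized counts, 27.0% of all genes rose and 29.3% fell. An effect of the region was not tested.

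NTF3 and NTF4, the ligands neurotrophin 3 and neurotrophin 4, were not detected beyond single reads. NTF3 (ENSG00000185652.12, chromosome 12, 5432108 to 5521536, plus strand) had 0, 0 and 2 reads with GFP and 0 in each T-MGM library. NTF4 (ENSG00000225950.8, chromosome 19, 49061066 to 49065076, minus strand) had 1, 0 and 0 reads with GFP and 0 in each T-MGM library. A count of 0 allows up to 3 counts, which is 0.0506 to 0.0856 CPM in these libraries, and this limit covers counting error only. No fold is given for either gene. The exons of NTF4 share 505 bases with ENSG00000283663, a protein-coding gene on the same strand with 0 reads in every library.

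**Figure D2:**
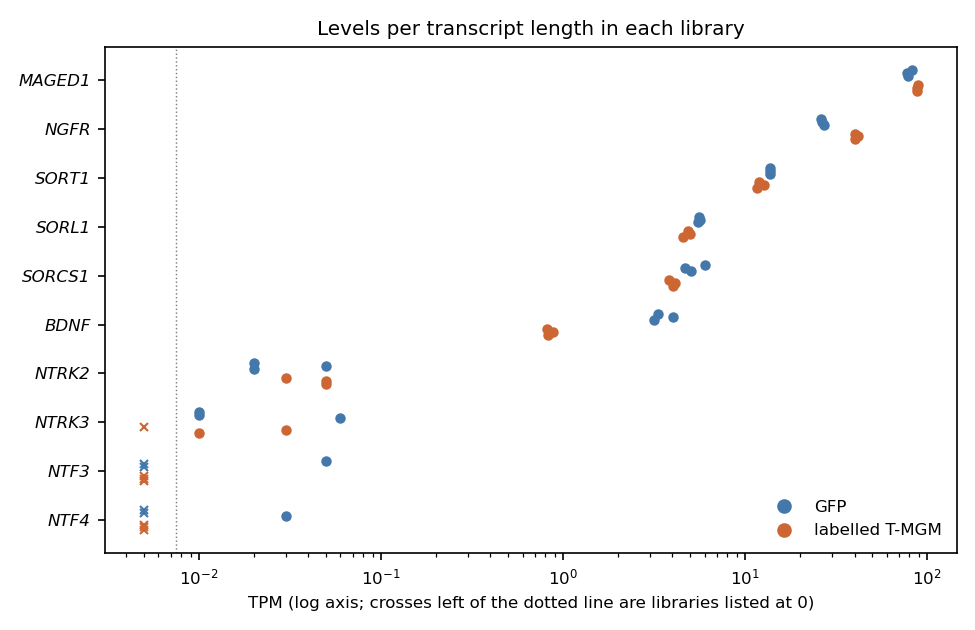
TPM of the members and their relatives in each library on a log axis, points for libraries coloured by group and crosses at the left for libraries listed at 0. NGFR lies between 26.0 and 42.0 TPM, SORT1 between 11.6 and 13.8 TPM and BDNF between 0.82 and 4.02 TPM, and NTRK2 and NTRK3 lie at or below 0.06 TPM.

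The order of the levels was the same in both groups for the members with reads, NGFR above SORT1 above BDNF. SORT1 had 13.7 ± 0.0700 TPM with GFP and 12.1 ± 0.564 TPM with T-MGM, and BDNF had 3.51 ± 0.452 and 0.843 ± 0.0321 TPM (SD, n = 3). The gaps between these 3 exceeded the spread in each group. NTRK2, NTRK3, NTF3 and NTF4 followed at 0.06 TPM or less, and their libraries overlapped, so that no order can be given among them. Per kilobase of exon, the normalized counts of NGFR, SORT1 and BDNF were 1070, 475 and 89.7 with GFP and 1820, 457 and 23.7 with T-MGM, in the same order. Within single libraries NGFR exceeded SORT1 by 1.97, 1.95 and 1.89 times in TPM with GFP and by 3.46, 3.31 and 3.39 times with T-MGM, means of 1.94 ± 0.0416 and 3.39 ± 0.0751 (SD). NGFR exceeded BDNF by 8.56, 6.63 and 7.81 times in the GFP libraries and by 48.4, 47.8 and 49.4 times in the T-MGM libraries. The groups did not overlap in either ratio, which the changes of the single genes already fix, so the ratios are given without a test.

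**Figure D3:**
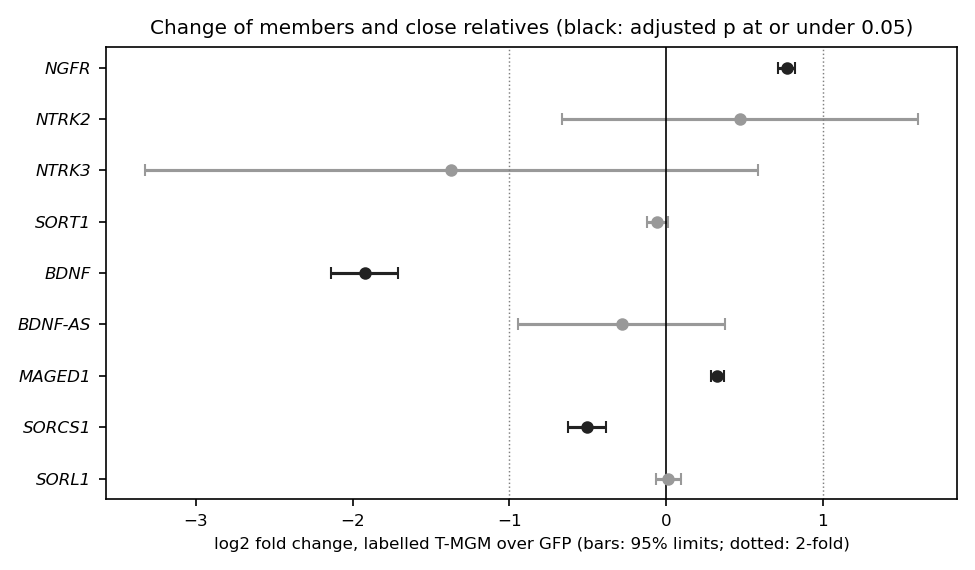
DESeq2 log2 fold change, T-MGM over GFP, of the members that have an adjusted p and of SORCS1, SORL1, MAGED1 and BDNF-AS. Points are estimates, bars the 95% limits, black marks genes that passed and dotted lines stand at 2-fold. NGFR lies at 0.77 and BDNF at -1.92 with narrow limits, and the limits of NTRK2 and NTRK3 span 0.

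Other Vps10p-domain receptors, the family of sortilin, were measured beside SORT1. SORCS1, a neuronal sorting receptor, fell from 1214 ± 64.5 to 855 ± 17.9 normalized counts (SD, n = 3), a log2 fold change of -0.50 with an adjusted p of 1.24e-15, and on log2 (TPM + 1) without a filter it was -0.32 and did not pass (adjusted p = 0.0849). SORL1, a sorting receptor of the amyloid precursor, had 2522 ± 26.8 and 2551 ± 133 normalized counts and a log2 fold change of 0.02 with an adjusted p of 0.82, and the sign turned with total counts as scaling and on TPM, where SORL1 passed as lower on filtered log2 (TPM + 0.1) (-0.22, adjusted p = 0.0489). SORCS2 and SORCS3 had at most 5 reads in any library.

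MAGED1, an adaptor that binds p75NTR, also rose. It had 8748, 8594 and 8427 normalized counts with GFP and 10821, 10770 and 10738 with T-MGM, means of 8590 ± 160 and 10776 ± 41.8 (SD, n = 3). The groups were separate, and the log2 fold change was 0.33 with an SE of 0.02 and an adjusted p of 6.01e-56. Of the 11652 genes with a mean of at least 100 normalized counts, 1455 (12.5%) had a larger rise. Of the 20 partners and adaptors of p75NTR, 19 had an adjusted p, of which 7 rose, 3 fell and 9 did not pass. The share that passed was 52.6%, against 38.4% of all genes tested. Among genes with a mean of at least 100 normalized counts 27.0% rose and 29.3% fell. The median log2 fold change of the list was 0.04, against -0.0027 over all genes tested. ARHGDIA, which keeps small GTPases inactive and binds p75NTR, rose by 0.42 on the log2 scale (adjusted p = 6.76e-103), and RHOA, the small GTPase downstream, rose by 0.39 (adjusted p = 1.81e-108). The genes that fell were PRDM4, KIDINS220 and LINGO1, the last of which encodes a coreceptor of p75NTR, and no gene of this group passed with over 2-fold change. Each of these 3 calls was lost when single libraries were left out: KIDINS220 without GFP replicate 3 or T-MGM replicate 1 or 2 (adjusted p up to 0.0923), PRDM4 without GFP replicate 1 or 2 or T-MGM replicate 2 or 3 (up to 0.157) and LINGO1 without any library but GFP replicate 3 (up to 0.328). None of the 3 passed on log2 (TPM + 1) without a filter.

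Of 19 enzymes and subunits that cleave the precursors or p75NTR, 16 had an adjusted p. Of these 7 rose, 2 fell and 7 did not pass, with a median of 0.35. They passed in 56.2%, against 38.4% of all genes tested. At a mean of at least 100 normalized counts, 27.0% of all genes rose and 29.3% fell, so this share does not set the list apart. FURIN, the convertase that cleaves proneurotrophins in the secretory pathway, rose from 4747 ± 39.5 to 6945 ± 94.5 normalized counts (log2 fold change 0.55, SE 0.03, adjusted p = 1.09e-102, n = 3 in DESeq2). PLAT, tissue plasminogen activator, which makes the plasmin that cleaves proBDNF outside the cell, rose by 0.45 on the log2 scale (adjusted p = 1.16e-128). PLG, which encodes the plasminogen it acts on, had 0 reads in every library. MMP9, a matrix metalloproteinase, rose from 20.1 ± 8.35 to 43.7 ± 18.6 normalized counts (log2 fold change 1.11, adjusted p = 0.0222), a call lost without GFP replicate 1, GFP replicate 2 or T-MGM replicate 2 (adjusted p = 0.111, 0.102 and 0.268) and on log2 (TPM + 1) without a filter (0.19, adjusted p = 0.326). The γ-secretase complex cuts the membrane stub of p75NTR, and its APH1 subunits moved apart. APH1B rose from 18.7 ± 8.42 to 113 ± 11.9 normalized counts, 5.97-fold (log2 fold change 2.58, adjusted p = 5.32e-16), with 10, 26 and 14 reads under GFP against 134, 120 and 135 under T-MGM. Its TPM overlapped between groups, at 0.08 to 0.55 and 0.43 to 0.68, and on log2 (TPM + 1) its change was 0.28 with an adjusted p of 0.189 and did not pass. APH1A fell from 1955 to 1503 (log2 fold change -0.38, adjusted p = 4.40e-16). PCSK2, a convertase of regulated secretion, fell from 17.3 ± 4.90 to 2.76 ± 3.96 normalized counts (log2 fold change -2.69, adjusted p = 0.00453), and this call was lost without GFP replicate 1 or GFP replicate 2 (adjusted p = 0.169 and 0.0622).

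Of 28 adaptors and modulators of TRK receptors, 26 had an adjusted p, of which 6 rose, 12 fell and 8 did not pass. Their median was -0.18, and 69.2% passed, against 38.4% of all genes tested. At a mean of at least 100 normalized counts, 27.0% of all genes rose and 29.3% fell. PIK3R1, the regulatory subunit of PI3-kinase, fell by 0.61 on the log2 scale (adjusted p = 1.08e-37), NEDD4L, a ubiquitin ligase, by 0.53 (adjusted p = 5.05e-81) and GAB2, a docking protein, by 0.36 (adjusted p = 1.60e-70). These genes serve many receptor kinases, and NTRK2 and NTRK3 were at 0.06 TPM or less in every library. Of 11 genes known to rise on neurotrophin signalling in neurons, 9 had an adjusted p. Of these 4 rose, 3 fell and 2 did not pass, with a median of 0.17. Their share that passed was 77.8%, against 38.4% of all genes tested and the same 27.0% that rose and 29.3% that fell at the higher mean. EGR2, an early growth response transcription factor, rose from 347 ± 13.6 to 743 ± 56.7 normalized counts (log2 fold change 1.09, adjusted p = 1.64e-32). PLAUR, the urokinase receptor, rose by 0.47 (adjusted p = 2.68e-11) and EGR1 by 0.17 (adjusted p = 5.96e-17), which was 0.02 on log2 (TPM + 1) with an adjusted p of 0.617. EGR3, SCG2 and NR4A1 fell, and the call of NR4A1 was lost without GFP replicate 1, GFP replicate 2 or T-MGM replicate 1 (adjusted p = 0.128, 0.115 and 0.124). On log2 (TPM + 1) without a filter SCG2 and NR4A1 did not pass (adjusted p = 0.0866 and 0.111).

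**Figure D4:**
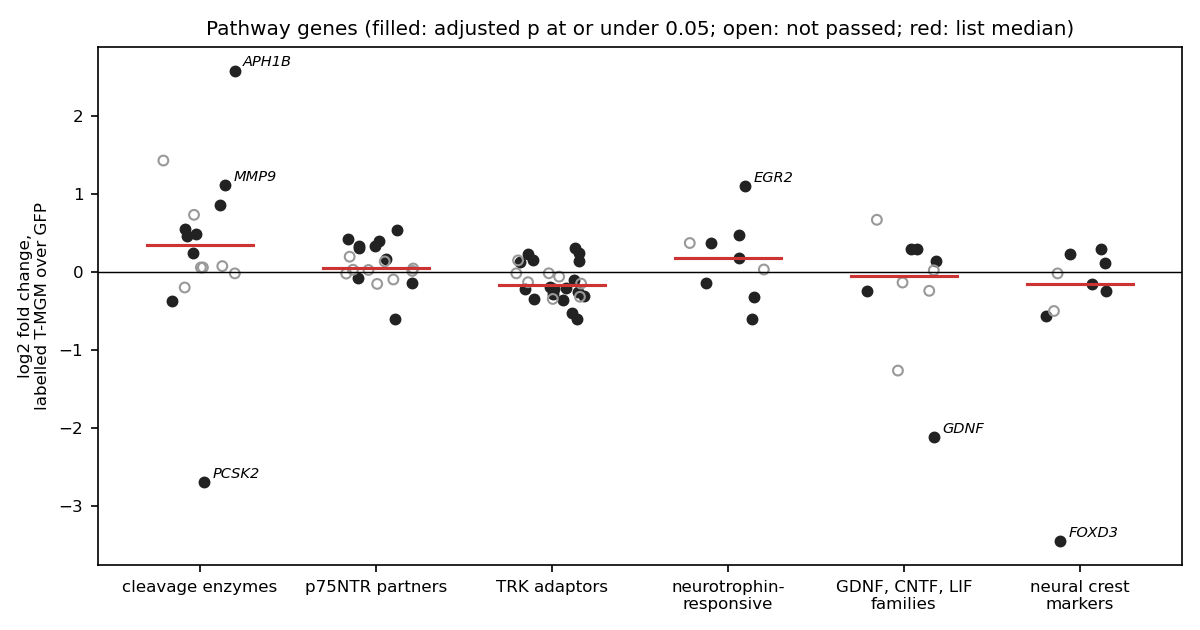
DESeq2 log2 fold change of the genes with an adjusted p in each pathway list, 1 point per gene, filled where the gene passed and open where it did not, with red lines for the list medians. Genes of the p75NTR partners lie between -0.61 and 0.53 and TRK adaptors between -0.61 and 0.31, and the lists hold genes on both sides of 0.

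NGFR was set beside 12 other neural crest and neural crest-like melanoma markers. Of these 9 had an adjusted p, of which 3 rose, 4 fell and 2 did not pass, with a median of -0.15. Genes that passed made up 77.8%, against 38.4% of all genes tested. At a mean of at least 100 normalized counts, 27.0% of all genes rose and 29.3% fell. FOXD3, a transcription factor of the early neural crest, fell from 497 ± 36.1 to 45.2 ± 9.11 normalized counts (log2 fold change -3.46, adjusted p = 1.27e-102, n = 3). SNAI2 fell by 0.57 on the log2 scale (adjusted p = 1.31e-45), ERBB3 and RXRG fell as well, and L1CAM, a neural adhesion molecule, rose by 0.28 (adjusted p = 1.46e-29). SOX10 and TFAP2A rose by 0.11 and 0.23. The TPM fits kept few of these calls: SOX10 turned to -0.05, TFAP2A did not pass in any of the 3 fits, and L1CAM was at 0.12 to 0.13 and passed in 1 of them (adjusted p = 0.0496, 0.0503 and 0.0901). ERBB3 did not pass on log2 (TPM + 1) without a filter (adjusted p = 0.116). The rise of NGFR was therefore not shared by every marker of this group.

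**Figure D5:**
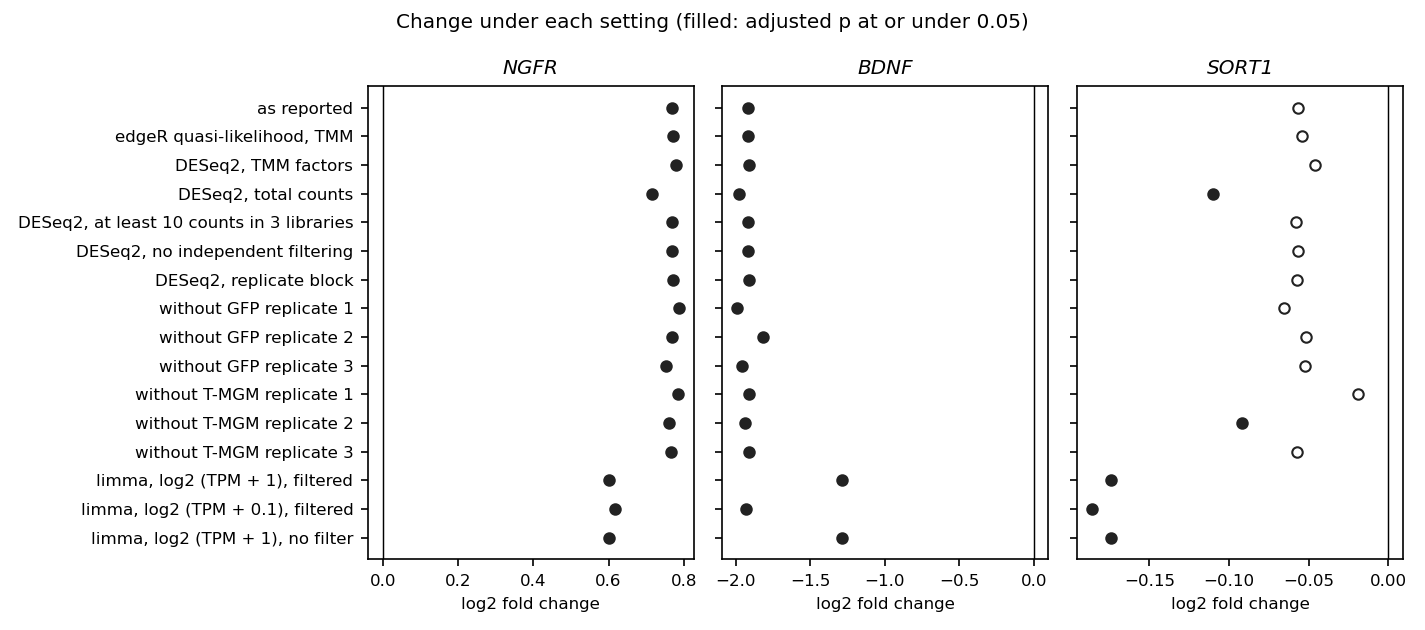
Log2 fold change of NGFR, BDNF and SORT1 under each of the 16 settings of scaling, filter, test and left-out library, 1 panel per gene with its own axis. NGFR stays between 0.60 and 0.79, BDNF between -1.99 and -1.29 and SORT1 between -0.19 and -0.02.

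NGFR, BDNF and MAGED1 kept their direction under every setting tried. NGFR ranged from 0.60 to 0.79 over 16 settings with a largest adjusted p of 0.000381. BDNF ranged from -1.99 to -1.29, the weakest values being those on log2 (TPM + 1), a scale that understates the change of low genes, and its largest adjusted p was 0.00146. MAGED1 ranged from 0.15 to 0.34 with a largest adjusted p of 0.0209.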

How the data were processed

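The authors deposited a table of raw counts per gene, whole numbers that were not normalized, and a table of TPM values for the same 6 libraries. Per the labels and the study's methods, the authors trimmed reads with cutadapt 1.8.1, aligned them to GRCh38 with STAR 2.7.7a, counted uniquely aligned reads with featureCounts and computed TPM with RSEM 1.3.0. The annotation release was not given in the sources used here. Labels and methods name different library kits, so strand is uncertain.

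The whole table of 58870 genes was fitted with DESeq2 1.42.0 in R 4.3.3, as in the study's methods, with group as the only term, a two-sided Wald test, size factors by median of ratios and Benjamini-Hochberg adjustment with independent filtering at 0.05. A gene passed at an adjusted p of 0.05 or less. Normalized counts are counts divided by size factors. TPM served for levels between genes and for alternatives with limma 3.58.1, and edgeR 4.0.16 was an alternative on counts. Total counts per library set the precision, and 3 counts were taken as the floor. Positions are from GENCODE release 44, which holds 99.4% of the gene identifiers, and promoter sequences are from RefSeq.

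Named genes were all members, MAGED1, other Vps10p-domain receptor genes, antisense and overlapping genes, in each pathway list the genes that passed with over 2-fold change and the 3 with the largest Wald statistic at a mean of at least 100 normalized counts, and 3 nearest profiles per member. PLG, KIDINS220, PRDM4, LINGO1, EGR3, SCG2, NR4A1, ERBB3, RXRG, SOX10, TFAP2A, LUM and PDGFRB were added after their values were seen. The members and lists were chosen with earlier results of these data known. Some results of the family and of marker genes are not reported here. Scripts were tested on simulated data.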

Additional observations from a re-analysis of the deposited data

How the results depend on the processing

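NGFR, BDNF and MAGED1 kept their direction and their side of the threshold under every alternative. The count of members that fell was 1 and became 2 with total counts as scaling and in each of the 3 limma fits on TPM, where SORT1 joined at -0.11, -0.17, -0.19 and -0.17, and it was 1 to 2 when single libraries were left out. The limma fits on log2 (TPM + 1) filtered, log2 (TPM + 0.1) filtered and log2 (TPM + 1) without a filter gave 1154, 1147 and 937 genes that rose against 3675, and 4360, 4361 and 3358 that fell against 3675, where total counts gave 2926 and 4635. In the same order they gave for genes that rose 3, 3 and 2 cleaving enzymes against 7, 4, 4 and 3 p75NTR partners against 7, 0, 0 and 0 TRK adaptors against 6, 2, 2 and 2 responsive genes against 4, 0, 0 and 0 other trophic factor genes against 3, and 1, 0 and 0 neural crest markers against 3. Of genes that fell, the filtered TPM fits gave 1 cleaving enzyme each against 2, all 3 gave 1 other trophic factor gene against 2, and the unfiltered fit gave 1 p75NTR partner against 3. Those fits put the median of genes with a mean of at least 100 normalized counts at -0.14 to -0.16 against -0.01 in DESeq2. Total counts gave 5 p75NTR partners that fell. Leaving out single libraries gave 1 to 3 cleaving enzymes, 1 to 2 p75NTR partners and 1 to 2 other trophic factor genes that fell, 3184 to 3297 genes that rose and 3219 to 3360 that fell. Signs turned for SORL1 (-0.0375 with total counts, -0.0207 to 0.0503 when single libraries were left out, the lowest without T-MGM replicate 2, and -0.19, -0.22 and -0.19 in the limma fits), NTRK3-AS1 (-0.64 with the replicate block and -2.94 to 2.93 when single libraries were left out, the lowest without T-MGM replicate 2), MITF (-0.062, -0.0624 and -0.062 in the limma fits) and SOX10 (-0.0476, -0.0477 and -0.0476). The replicate numbers did not pair the libraries: deviations of same-numbered libraries correlated at -0.01, -0.06 and 0.03 over 12654 genes, and not every library correlated best with its own number. A fit with the replicate block gave 3022 genes that rose and 3077 that fell, 6 cleaving enzymes that rose (MMP9 was at 1.10 with an adjusted p of 0.0652), 1 p75NTR partner and 1 other trophic factor gene that fell, and left the calls of the members as they were. The cause of these differences was not tested. Low counts limit NTRK2 and NTRK3, and NTF3 and NTF4 were at the floor.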

Other observations

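Genes of the other trophic factor families were measured beside the neurotrophins. Of 16 ligands and receptors of the GDNF, CNTF, LIF and MANF families, 10 had an adjusted p. Of these 3 rose, 2 fell and 5 did not pass, with a median log2 fold change of -0.06. Over all genes tested, 38.4% passed in either direction. Among genes with a mean of at least 100 normalized counts 27.0% rose and 29.3% fell, so these counts do not set the list apart. LIF, a cytokine, fell from 12024 ± 199 to 10096 ± 119 normalized counts (SD, n = 3, log2 fold change -0.25, adjusted p = 3.84e-36 in DESeq2). Its receptor genes rose, LIFR by 0.29 on the log2 scale (adjusted p = 1.36e-08) and IL6ST, which encodes gp130, by 0.29 (adjusted p = 5.77e-36), but on log2 (TPM + 1) these were 0.14 and 0.03 and did not pass (adjusted p = 0.207 and 0.834). GDNF fell from 13.7 ± 0.976 to 3.13 ± 2.25 normalized counts (log2 fold change -2.12, adjusted p = 0.0202), and this call was lost without any library but T-MGM replicate 1 (adjusted p from 0.0587 to 0.0935).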
